A study of Mus musculus with 18 samples.

Results

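The genes described here are the lipases of triglyceride breakdown in mouse liver and epididymal fat and the proteins that activate, inhibit or hold them. They were chosen by name: Lipe, Pnpla2, Pnpla3, Mgll, Lpl, Lipc, Abhd5, G0s2 and Gpihbp1. Of these 9 genes, 8 had at least 1 probe with their name on the array, 14 probes of 45281 in all, among 14422 genes with a named probe. Lipc, the hepatic lipase, had no probe under its name and is not analysed here. Transcripts were read on 18 bead arrays from Illumina, 3 for each of 3 diets in each tissue. The animals were male C57BL/6J mice, written C56BL/6J among the characteristics, which arrived at 4 weeks of age and ate their diet for 16 weeks. A normal diet (ND) was compared with a high-fat diet (HFD) that contained 20% fat together with 1% cholesterol. In the last group (LU) luteolin, a flavonoid of plants, was mixed into the HFD at 0.005% by weight. The groups held 10, 13 and 13 mice, and nothing in the labels says whether an array is 1 animal or a pool, so each p-value speaks of the spread over the samples measured, and that spread may be technical. No transgene or deletion was used. Luteolin was given with the high-fat diet only, so the series holds no luteolin group on the normal diet.

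Triglyceride stored in a fat cell is taken apart in steps. Pnpla2, the adipose triglyceride lipase, removes the first fatty acid. Lipe, the hormone-sensitive lipase, removes the next, and Mgll, the monoacylglycerol lipase, removes the last. Abhd5 activates Pnpla2 at the lipid droplet and G0s2 inhibits it. Pnpla3 is a droplet protein of the same family as Pnpla2. Lipoprotein lipase, made from Lpl, works outside the cells, where it releases fatty acids from circulating lipoproteins, and Gpihbp1 carries it across capillary endothelium and holds it on the vessel wall. Healthy adult liver makes little Lpl, while fat, muscle and macrophages make much of it.

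The sequence just before the transcription start is shown for Pnpla2, for its activator Abhd5, for its inhibitor G0s2 and for Mgll, because Pnpla2, G0s2 and Mgll were all lower in liver on luteolin with the high-fat diet than on the normal diet while Abhd5 did not pass the test. Each line holds the 250 bases before the RefSeq start, 5′ to 3′ on the strand of the gene, from the promoter table of build GRCm38.p6. The windows are chr7:141454938-141455187 on the plus strand for Pnpla2, chr9:122351366-122351615 on the plus strand for Abhd5, chr1:193273189-193273438 on the minus strand for G0s2, and chr6:88724162-88724411 on the plus strand for the outermost of the Mgll starts. Capitals mark matches, on either strand, to the motifs named after the sequences.
Pnpla2: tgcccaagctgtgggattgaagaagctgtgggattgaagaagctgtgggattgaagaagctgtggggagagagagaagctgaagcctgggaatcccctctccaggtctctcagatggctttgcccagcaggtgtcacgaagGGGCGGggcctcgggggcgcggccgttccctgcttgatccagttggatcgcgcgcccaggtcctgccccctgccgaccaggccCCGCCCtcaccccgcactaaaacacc
Abhd5: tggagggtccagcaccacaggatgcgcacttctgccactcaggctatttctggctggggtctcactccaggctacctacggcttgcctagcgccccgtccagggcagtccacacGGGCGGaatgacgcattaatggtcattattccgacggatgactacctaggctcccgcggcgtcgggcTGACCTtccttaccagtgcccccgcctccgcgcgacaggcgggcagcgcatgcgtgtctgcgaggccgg
G0s2: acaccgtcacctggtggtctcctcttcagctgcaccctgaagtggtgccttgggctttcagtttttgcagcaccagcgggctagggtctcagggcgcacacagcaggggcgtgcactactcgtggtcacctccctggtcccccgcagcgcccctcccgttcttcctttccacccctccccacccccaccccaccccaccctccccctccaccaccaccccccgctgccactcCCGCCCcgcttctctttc
Mgll: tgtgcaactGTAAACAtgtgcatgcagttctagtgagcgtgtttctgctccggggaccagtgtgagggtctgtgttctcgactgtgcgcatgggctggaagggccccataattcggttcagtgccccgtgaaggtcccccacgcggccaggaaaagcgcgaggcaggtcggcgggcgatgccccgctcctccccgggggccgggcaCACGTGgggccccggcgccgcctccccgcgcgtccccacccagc
The motifs searched on both strands were AGGTCA (a nuclear receptor motif), its direct repeat with a spacer of 1 base (bound by PPAR with RXR, and itself holding AGGTCA), the E-box CACGTG, the forkhead motif TGTTTAC, the sterol response element TCACNCCAC, the GC box GGGCGG, the box written CCAAT and the TATA box TATAAA. Windows were found for 7 of the 9 genes, 10 windows in all. No window held the direct repeat, which 0.0335% of 32851 promoters of this length hold. Among the windows shown, Mgll held the E-box 44 bases before its start and the forkhead motif 241 bases before it, motifs found in 6.02% and 3.17% of all promoters. The windows of Lipe, not shown, held these motifs too, 155 and 119 bases before their starts. Abhd5 held AGGTCA on the opposite strand, 69 bases before its start. A window of Lipc, not shown, held AGGTCA as well, as do 14% of all promoters. Pnpla2, Abhd5 and G0s2 each held at least 1 GC box, found in 32.7% of all promoters, and for G0s2 it lay 18 bases before the start. Windows not shown of Lipe, Pnpla3, Lipc and Mgll held a GC box too. A match describes the letters in the window and does not show a bound site.

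At a detection p under 0.05, liver arrays detected 15464 to 16998 probes and fat arrays 19113 to 19852. Median signals ran from 150.0 to 159.7 in liver and from 193.5 to 215.8 in fat. Precision is limited by having 3 arrays a group. The labels of tissue were checked against defining markers: the hepatocyte gene Alb was detected on 9 of 9 liver arrays and 0 of 9 fat arrays, and the adipocyte genes Adipoq and Plin1 on 9 of 9 fat arrays and 0 of 9 liver arrays. Values below are log2 signals after background correction and quantile normalization within a tissue, and differences are log2 ± SE as fitted by limma, where each group has n = 3 arrays. A gene is said to rise or fall where its adjusted p (limma, Benjamini-Hochberg over 8937 genes in liver or 10240 in fat) was under 0.05. A level in bulk tissue cannot tell fewer cells of a type from less RNA per cell.

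The high-fat diet against the normal diet in liver shows the state of the lipases without the flavonoid. Livers on HFD held 4.79-fold more Lpl transcript and 2.0-fold less G0s2 than ND livers, with smaller changes in Pnpla2, which fell, and Gpihbp1, which rose. Of the 7 members tested in liver, 2 rose, 2 fell and 3 did not pass, against 30.3% of all genes called in this comparison. The median difference of the members was 0.03, beside 0.00 for all genes.

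Lpl stood at 11.26, 11.29 and 10.93 on the ND arrays, 13.09, 13.58 and 13.60 on the HFD arrays and 13.98, 13.86 and 13.96 on the LU arrays. The 3 diets did not overlap, and every HFD and LU array lay far above every ND array. The difference of HFD from ND was 2.26 ± 0.14 (adjusted p = 1.56e-05). Markers of macrophages, which make Lpl, moved alongside: 11 of 14 tested rose and 1 fell, where 30.3% of all genes were called. Their summed signal went from 9945-11182 in ND to 16502-20777 in HFD livers. The part of those cells in the Lpl value was not tested. Of the 14 genes on the adipocyte list 5 were tested in liver: Cidec, Pparg, Aqp7 and Car3 rose and Cebpa did not pass, with summed signals of 10309-11721 in ND and 15939-17589 in HFD livers. The adipocyte-defining genes of that list, Adipoq, Plin1, Lep, Retn and Fabp4, were detected on 0 of 9 liver arrays. The keratins Krt8 and Krt18, the only genes of the mesothelial list tested in liver, rose as well, from a sum of 6048-6301 to 12755-13280. The other 6 genes of that list, Msln, Upk3b and Wt1 among them, were not tested. These keratins alone do not mark mesothelium in liver. The part of the adipocyte and mesothelial lists in the Lpl value was not tested either. A second Lpl probe was not detected on any liver array and gives no value there.

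G0s2 stood at 13.80, 13.87 and 13.74 on ND, at 12.88, 12.92 and 12.62 on HFD and at 12.65, 12.90 and 13.11 on LU arrays. All 6 arrays on the fat-rich diets lay below the ND arrays, and the HFD and LU arrays overlapped. The inhibitor thus fell by 1.00 on the log2 scale from ND to HFD, with an SE of 0.12 (adjusted p = 0.000537).

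Pnpla2 itself stood at 12.50, 12.47 and 12.30 on ND, 12.08, 12.18 and 12.08 on HFD and 12.08, 12.12 and 12.17 on LU arrays. Its ND arrays lay above the other 6, which overlapped each other. The difference of HFD from ND was -0.31 ± 0.07 (adjusted p = 0.0121). The log2 ratio of G0s2 to Pnpla2 on the same array changed by -0.69 between ND and HFD, with an exact two-sided permutation p of 0.1, the smallest that 3 arrays against 3 allow (adjusted 0.25 over 15 such ratio comparisons). G0s2 was therefore lower relative to Pnpla2 on every HFD array than on any ND array, but the design cannot take that ratio past the threshold. In fat the same ratio differed by 0.26 with overlapping arrays (exact permutation p of 0.2). The ratio of Abhd5 to Pnpla2 differed between HFD and ND by 0.34 in liver (exact permutation p of 0.1) and 0.07 in fat (0.6), and that of Gpihbp1 to Lpl by -1.97 in liver (0.1). No adjusted value of the 15 was under 0.25.

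Abhd5, the activator, stood between 9.91 and 10.17 on ND, 10.05 and 10.10 on HFD and 9.89 and 10.06 on LU arrays. Its 3 groups overlapped and the difference of HFD from ND was 0.03, with a 95% interval from -0.15 to 0.22.

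Mgll was read by 3 probes in liver. The brightest, kept by rule, stood at 12.52, 12.23 and 12.49 on ND, 12.23, 12.19 and 12.03 on HFD and 11.83, 11.94 and 11.85 on LU arrays. The order ran down from ND to HFD to LU, with 1 ND array close to the HFD arrays. HFD differed from ND by -0.27 ± 0.09, which missed the threshold (adjusted p = 0.0578). Without ND liver 2, the array nearest to the HFD values, the difference was -0.35 (adjusted p = 0.0179). It also passed with no background correction, a stricter detection filter, trend and robust moderation and the authors' values. It stayed uncalled under 14 of 19 alternatives. The dimmer probes differed by -0.45 (adjusted p = 0.00923) and -0.62 (adjusted p = 0.00296) with the adjustment over all detected probes, so 2 of 3 probes fell and the size varied with the probe.

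Gpihbp1 stood at 9.71, 9.74 and 9.72 on ND, at 10.02, 10.16 and 9.85 on HFD and at 9.56, 9.42 and 9.70 on LU arrays. HFD arrays were highest and LU arrays lowest, with no overlap. The rise from ND to HFD was 0.29 ± 0.10 and passed narrowly (adjusted p = 0.048). It was lost without any 1 of the 3 ND liver arrays, HFD liver 1, HFD liver 2 or LU liver 1, with adjusted p from 0.0669 to 0.155. The call was also lost with no detection filter, over all detected probes (0.0535), with the replicate number as a block (0.0896) and with only the 6 arrays. In all it was lost under 10 of 19 alternatives. The dimmer probe differed by 0.27 (adjusted p = 0.15). Endothelial markers moved the same way: 7 of 15 rose and none of them fell, where 30.3% of all genes were called. Their summed signals were 12389-12804 in ND and 14929-16364 in HFD livers, and their part in the Gpihbp1 value was not tested.

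Lipe was close to background in liver. It was detected on 1 of 3 ND, 3 of 3 HFD and 2 of 3 LU arrays, and passed the detection filter only through the HFD group. Its log2 signals lay between 5.40 and 6.36 over the 9 arrays with all diets overlapping, and HFD differed from ND by 0.16 ± 0.19. Pnpla3 was detected on 0 of 9 liver arrays and was not tested there.

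**Figure D1:**
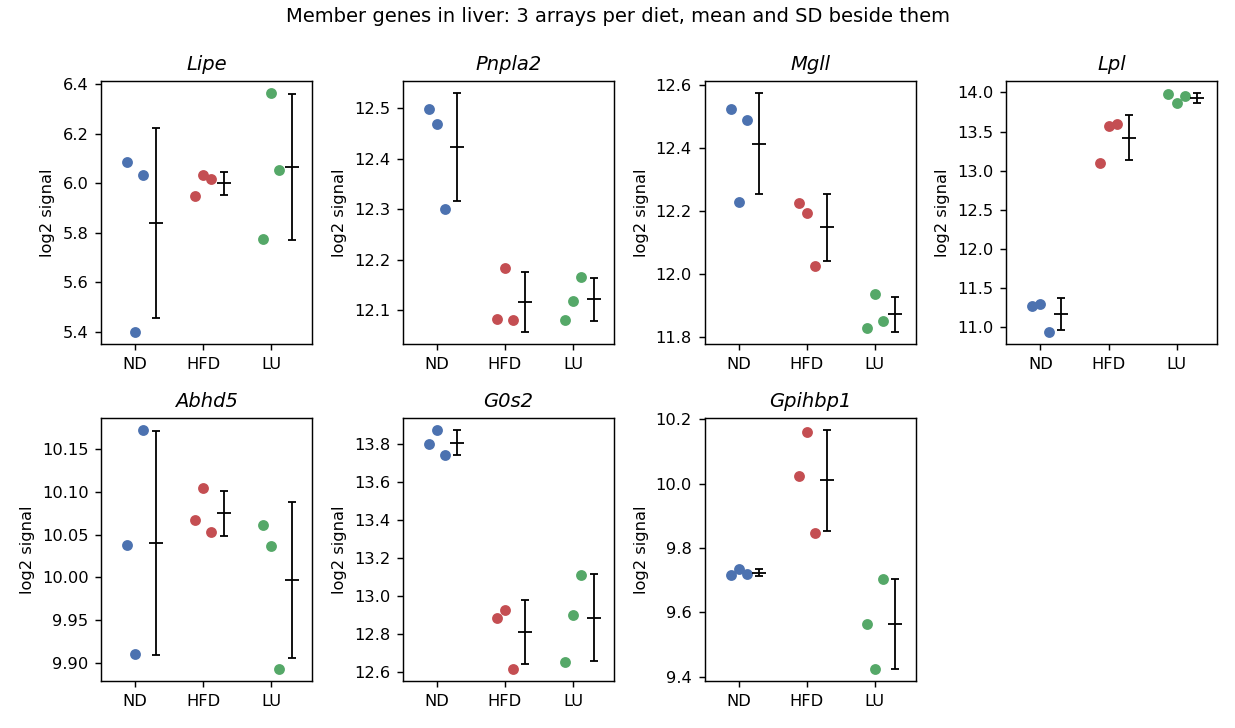
Normalized log2 signal (vertical axes, each panel with its own range that does not start at 0) of the 7 members tested in liver, with 1 point per array and the mean and SD of the 3 arrays beside them. Lpl arrays run from 10.93-11.29 on ND to 13.86-13.98 on LU, while G0s2 and Pnpla2 arrays on ND sit above all others.

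Luteolin with the high-fat diet against the high-fat diet alone asks what the flavonoid changed. In liver Gpihbp1 fell and Lpl rose a little further, while Pnpla2, G0s2 and Abhd5 did not pass. That made 2 of 7 members called, 1 in each direction, against 17.1% of all genes, with a median over the members of 0.01 beside 0.03 for all genes.

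Gpihbp1 fell by 0.45 on the log2 scale from HFD to LU (SE 0.10, adjusted p = 0.0159). Its dimmer probe stood at 7.91, 8.26 and 8.14 on HFD and 6.67, 6.87 and 7.16 on LU arrays, a difference of -1.20 ± 0.13 (adjusted p = 0.000839). The probes therefore moved the same way, and the dimmer one fell further. Endothelial markers fell too, 9 of 15 with none rising, where 17.1% of all genes were called. Their summed signal was 11905-12527 in LU livers, and their part was not tested.

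Lpl rose by 0.51 ± 0.14 from HFD to LU, 1.42-fold (adjusted p = 0.0411). The call was lost without any 1 of the 6 HFD and LU liver arrays (adjusted p from 0.0521 to 0.109), with cyclic loess (adjusted p = 0.0523) and with median scaling (adjusted p = 0.0911). Of the macrophage markers 0 rose and 2 of 14 fell, where 17.1% of all genes were called.

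The brightest Mgll probe was lower on LU than on HFD arrays by 0.28, with no overlap, and did not pass (-0.28 ± 0.09, adjusted p = 0.0699). It passed without ND liver 2 (adjusted p = 0.0378). The same held with only the 6 arrays, no background correction, a stricter detection filter, trend and robust moderation and the authors' values. It stayed uncalled under 13 of 19 alternatives. The dimmest Mgll probe stood at 9.95, 10.08 and 10.05 on HFD and 9.42, 9.58 and 9.19 on LU arrays and fell (-0.63 ± 0.11, adjusted p = 0.00508), while the third differed by -0.22 (adjusted p = 0.151).

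The other members gave no call between LU and HFD livers. Pnpla2 differed by 0.01 (95% interval -0.16 to 0.17), G0s2 by 0.08 (-0.20 to 0.35), Abhd5 by -0.08 (-0.26 to 0.11) and Lipe by 0.07 (-0.36 to 0.49). These intervals hold a return of G0s2 of up to 0.35, well short of the decrease of 1.00 between ND and HFD.

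Set against the normal diet, LU livers had 1 member higher and 3 lower of 7, against 41.1% of all genes called, and the median of the members was -0.16 beside 0.03 for all genes. Lpl was 6.81-fold higher (2.77 ± 0.14, adjusted p = 4.38e-06). G0s2 fell by 0.92 (SE 0.12, adjusted p = 0.000457), Mgll by 0.54 (SE 0.09, adjusted p = 0.00171) and Pnpla2 by 0.30 (SE 0.07, adjusted p = 0.00944). The other Mgll probes differed by -0.66 and -1.25 and were called as well. For Gpihbp1 the probes disagreed on size: the brighter differed by -0.16 (adjusted p = 0.217), the dimmer by -0.93 (adjusted p = 0.000515). The 3 diet comparisons within a tissue share arrays, so none is a repeat of another.

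**Figure D2:**
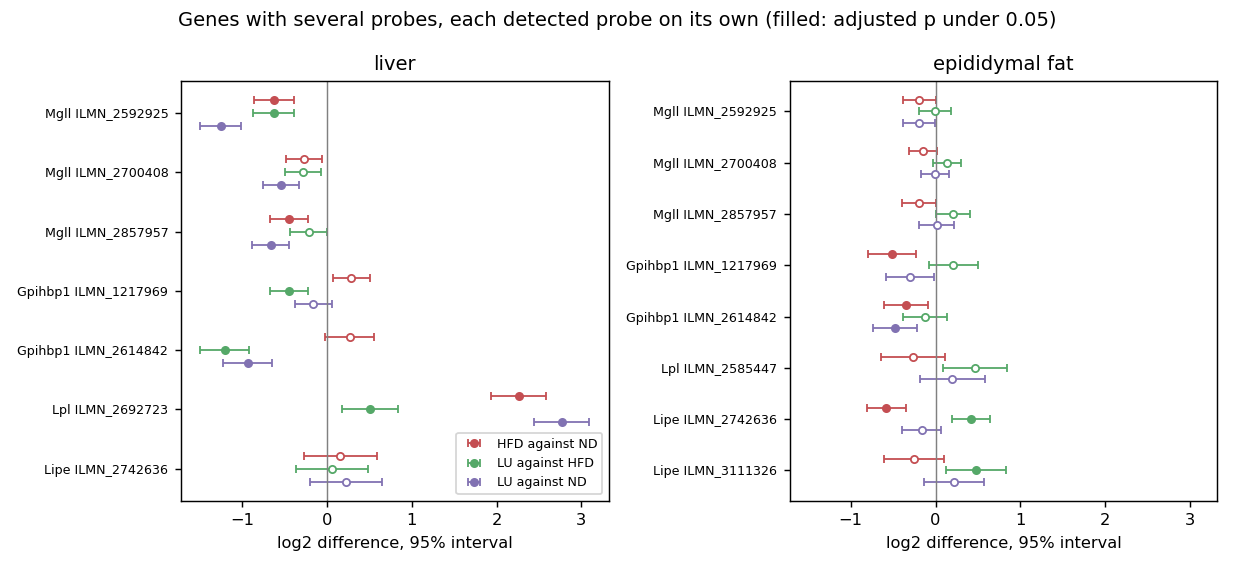
Log2 differences (horizontal axes, with 95% intervals from limma) between diets for each detected probe of Mgll, Gpihbp1, Lpl and Lipe, with filled points for an adjusted p under 0.05 over all detected probes and without the bright Lpl probe in fat. In liver the Gpihbp1 probes differ by -0.45 and -1.20 between LU and HFD, and the Mgll probes by -0.54, -0.66 and -1.25 between LU and ND.

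In epididymal fat the high-fat diet went with lower transcript of the intracellular lipases Pnpla2 and Lipe, of the activator Abhd5 and of Gpihbp1. Of the 8 members tested, 4 fell and none of them rose, against 45.4% of all genes called and 23.9% called lower. The median of the members was -0.25, beside -0.03 for all genes.

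Pnpla2 stood at 15.82, 15.94 and 15.85 on ND, 15.44, 15.40 and 15.50 on HFD and 15.78, 15.74 and 15.77 on LU arrays. HFD arrays were lowest, LU arrays lay between, and no groups overlapped. The difference of HFD from ND was -0.42 ± 0.06 (adjusted p = 0.000429). The deposited signals of this probe, 44145 to 64870, are near the top of the array's range, where the highest signal of any probe in fat was 69609.

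Lipe stood at 10.43, 10.76 and 10.44 on ND, 9.95, 9.84 and 10.10 on HFD and 10.37, 10.34 and 10.43 on LU arrays. It followed the same order, with the LU arrays just under the lowest ND array. The change from ND to HFD was -0.58 ± 0.10, 1.5-fold lower (adjusted p = 0.0014). A dimmer Lipe probe differed by -0.25 (adjusted p = 0.227), and another was detected on none of the 18 arrays.

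Abhd5 stood at 11.92, 12.15 and 12.34 on ND, 11.70, 11.83 and 11.85 on HFD and 11.89, 12.07 and 11.93 on LU arrays. HFD arrays lay below all others and the ND arrays were spread widely. The decrease of 0.35 (-0.35 ± 0.10, adjusted p = 0.0226) was lost without ND fat 2 (adjusted p = 0.0514), ND fat 3 (0.0655) or HFD fat 1 (0.0765).

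Gpihbp1 stood at 12.84, 13.08 and 12.64 on ND, 12.13, 12.36 and 12.54 on HFD and 12.47, 12.62 and 12.56 on LU arrays. HFD arrays lay below the ND arrays and overlapped the LU arrays. Its difference of HFD from ND was -0.51 ± 0.13 (adjusted p = 0.00943), and the dimmer probe fell as well, by 0.35 (-0.35 ± 0.12, adjusted p = 0.0346).

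G0s2 stood at 13.67, 13.20 and 13.50 on ND, 13.19, 13.28 and 13.42 on HFD and 13.69, 13.55 and 13.59 on LU arrays. ND and HFD arrays overlapped, and the difference was -0.16 ± 0.11 (adjusted p = 0.29). Without ND fat 2, the lowest ND array, it was -0.29 (adjusted p = 0.0301). Mgll was between 14.07 and 14.42 on all 9 arrays and its kept probe differed by -0.15 between HFD and ND (adjusted p = 0.122), with the other probes at -0.19 each and not called.

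Pnpla3 stood at 9.98, 9.27 and 10.82 on ND, 10.13, 10.48 and 10.08 on HFD and 10.82, 10.98 and 11.02 on LU arrays. The ND arrays spanned the HFD values, and the difference was 0.21 ± 0.31. It was 0.60 (adjusted p = 0.0398) without ND fat 3 and -0.17 without ND fat 2.

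Lpl could not be read for diet in fat with its bright probe. That probe was at 66139 to 68102 on all 9 arrays, the second brightest probe of the array by mean, and its normalized values all lay between 15.99 and 16.06. The dimmer probe, with signals of 380 to 570, stood at 7.95, 8.60 and 8.53 on ND, 8.21, 7.90 and 8.18 on HFD and 8.38, 8.61 and 8.68 on LU arrays. HFD overlapped ND, and the difference was -0.26 ± 0.17 (adjusted p = 0.235 over all detected probes).

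Cell type markers differed between the same fat samples, where 45.4% of all genes were called. Of 12 adipocyte markers tested, 9 fell and 1 rose from ND to HFD, with summed signals of 218646-235926 and 201457-219175. Of 17 macrophage markers 15 rose, and their sum went from 38463-44623 to 110137-135602. Of 16 endothelial markers 6 fell and 1 rose. The part of these cell types in the lower lipase values was not tested, and 5 of the adipocyte markers are also on the list of lipolysis control genes described below.

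**Figure D3:**
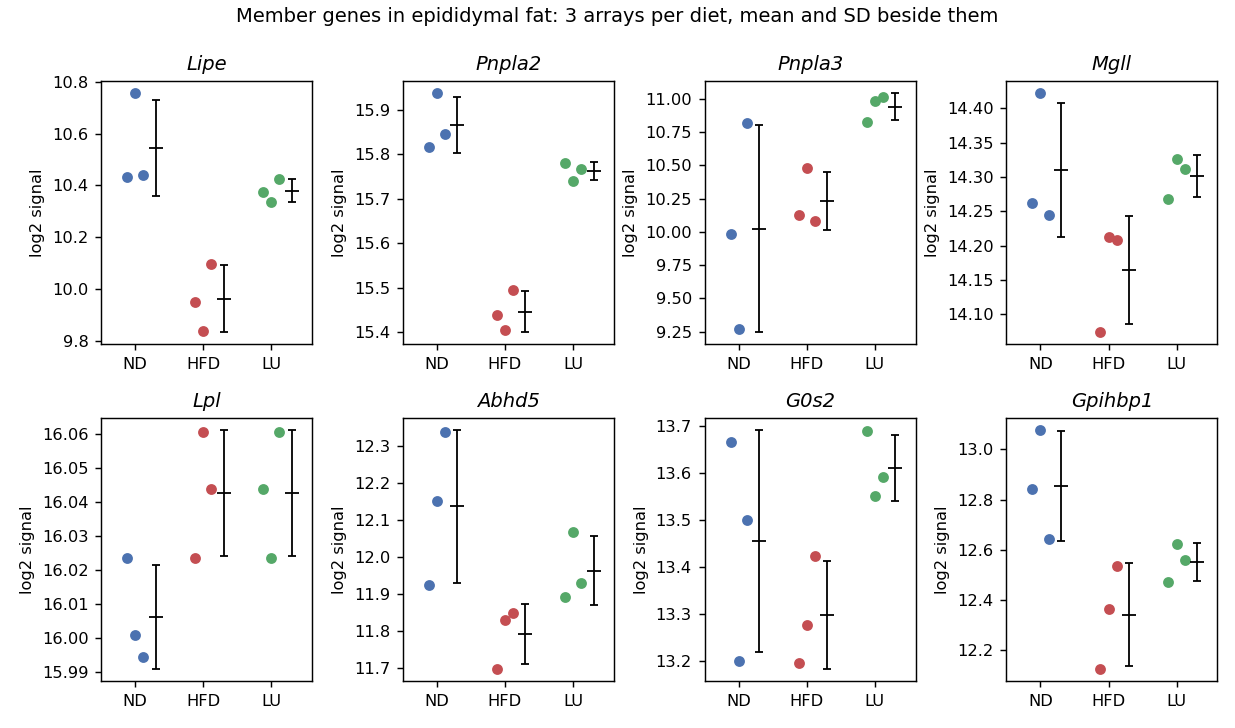
Normalized log2 signal (vertical axes, each panel with its own range that does not start at 0) of the 8 members in epididymal fat, with 1 point per array and the mean and SD of the 3 arrays beside them. Pnpla2 and Lipe are lowest on the 3 HFD arrays and higher on LU arrays, and the Lpl panel spans only 15.99 to 16.06 because its probe is at the top of the scale.

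With luteolin added, fat Pnpla2 and Lipe were higher than on the high-fat diet alone. These were 2 of 8 members called, both higher, against 31.8% of all genes and 16.3% called higher, with a median over the members of 0.26 beside 0.02. Pnpla2 rose by 0.32 ± 0.06 (adjusted p = 0.00427), 1.25-fold. Lipe rose by 0.42 ± 0.10 (adjusted p = 0.0129), 1.33-fold, and its dimmer probe rose by 0.47 ± 0.16 (adjusted p = 0.0476). Without HFD fat 2 the kept Lipe probe missed the threshold (0.35, adjusted p = 0.0516).

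The remaining members were not called between LU and HFD fat. G0s2 was higher on every LU array than on any HFD array, by 0.31 ± 0.11, and just missed (adjusted p = 0.0636), and it passed without ND fat 1 (adjusted p = 0.0358) or ND fat 2 (0.0158). G0s2 also passed with only the 6 arrays, no background correction, trend and robust moderation and the authors' values. It stayed uncalled under 13 of 19 alternatives. Pnpla3 was also higher without overlap, by 0.71 ± 0.31 (adjusted p = 0.11). It passed without ND fat 2 (adjusted p = 0.0246) or ND fat 3 (0.018), the outermost ND arrays, and with only the 6 arrays compared (0.0033). Abhd5 differed by 0.17 (95% interval -0.06 to 0.41), Gpihbp1 by 0.21 (-0.08 to 0.49) and Mgll by 0.14 (-0.02 to 0.29). The dimmer Gpihbp1 probe had the opposite sign, at -0.13 (adjusted p = 0.434), and the other Mgll probes were at 0.21 and -0.01, so the probes of both genes disagreed. The dimmer Lpl probe differed by 0.46 ± 0.17 (adjusted p = 0.0638).

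Marker lists moved here too, where 31.8% of all genes were called. Of the adipocyte markers 6 of 12 rose and none of them fell from HFD to LU, with a summed signal of 222237-235626 in LU fat. Of the macrophage markers 16 of 17 fell, to a sum of 73499-85559. Their part in the higher Pnpla2 and Lipe values was not tested.

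Against the normal diet, LU fat had 1 of 8 members called, Pnpla3, against 33.3% of all genes, with a median over the members of -0.06 beside 0.00. Pnpla3 rose by 0.92 ± 0.31, 1.89-fold (adjusted p = 0.0469). The call was lost without any 1 of 8 of the 9 fat arrays (adjusted p from 0.0567 to 0.117), and the difference was 0.54 without ND fat 2. Pnpla2 differed by -0.10 (95% interval -0.24 to 0.03) and Lipe by -0.17 (-0.39 to 0.06), while the dimmer Lipe probe had the opposite sign, at 0.22 (adjusted p = 0.309). Gpihbp1 differed by -0.30 (adjusted p = 0.0953) with the bright probe and by -0.47 (adjusted p = 0.0125) with the dimmer probe. Without ND fat 3 the bright probe gave -0.41 (adjusted p = 0.0389), and without ND fat 1 Abhd5 gave -0.28 (adjusted p = 0.0408) in place of -0.17. Pnpla2 passed with cyclic loess (-0.23, adjusted p = 0.0282) and with median scaling (-0.21, adjusted p = 0.0332).

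**Figure D4:**
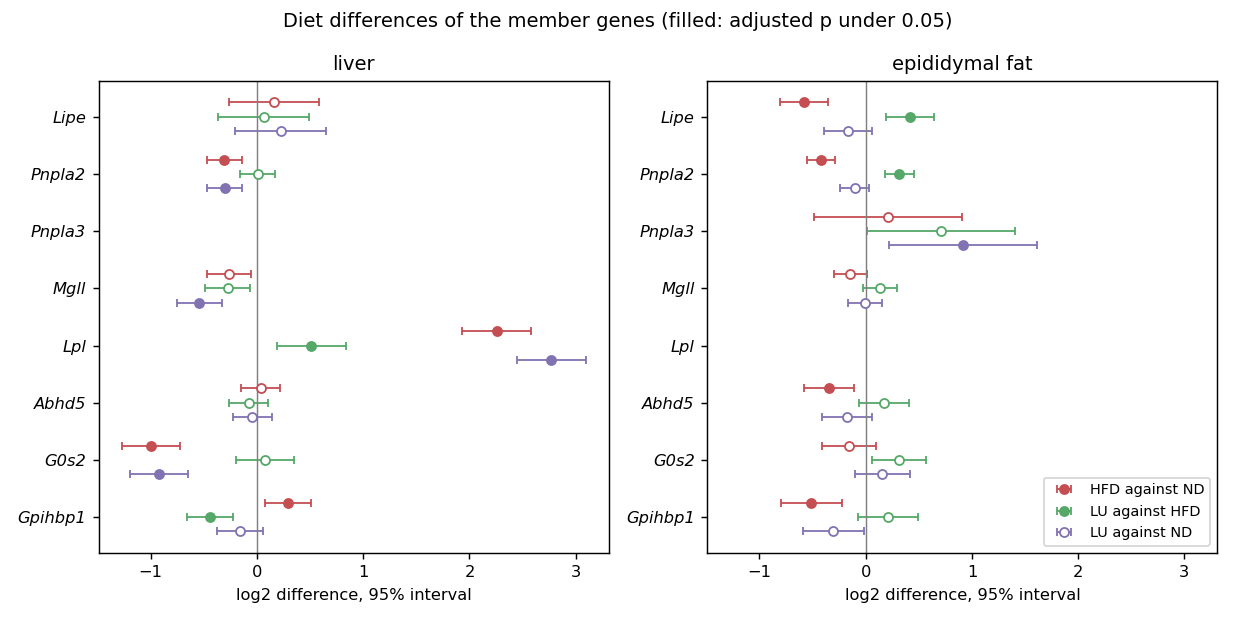
Log2 differences between diets (horizontal axes, with 95% intervals from limma, 3 arrays per group) of the member genes in liver and epididymal fat, filled where the adjusted p was under 0.05. Lpl in liver lies at 2.26 and 2.77 against ND, and in fat Pnpla2 and Lipe lie below 0 for HFD against ND and above 0 for LU against HFD. Lpl in fat, at the top of the scale, is not drawn.

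The tissues were compared with all 18 arrays normalized together. Of the 9 members 8 were tested here, as Lipc had no probe. Fat held more of each member tested than liver on the high-fat diets with or without luteolin. The exception was G0s2 on HFD, which did not pass. On the normal diet G0s2 was higher in liver. The members called were 8 of 8 on ND (7 lower in liver), 7 of 8 on HFD and 8 of 8 on LU (each of these lower in liver). Called lower in liver were 47.4%, 46.9% and 46.4% of all genes on ND, HFD and LU. Of all genes 85.7%, 85.3% and 84.7% were called in these comparisons in either direction, so the counts of called members are near the background. Among the members lower in liver, Pnpla3 was undetected there and kept in this fit only through fat. Lpl was at the top of the scale in fat. The counts of members lower in liver are therefore not read against the share of all genes lower there.

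The levels on this common scale show the order of the 6 groups. Pnpla2 was 15.90 ± 0.06 (SD, n = 3) in ND fat, 15.80 ± 0.02 in LU fat, 15.49 ± 0.05 in HFD fat, 12.66 ± 0.10 in ND liver, 12.38 ± 0.04 in LU liver and 12.37 ± 0.05 in HFD liver. Only the last pair of neighbours overlapped. Lipe was 10.18 ± 0.19 in ND, 10.00 ± 0.04 in LU and 9.58 ± 0.13 in HFD fat without overlap, and 6.58 ± 0.38, 6.50 ± 0.06 and 6.27 ± 0.55 in LU, HFD and ND liver, all overlapping.

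Mgll ran from 14.29 ± 0.10 in ND fat and 14.28 ± 0.03 in LU fat, which overlapped, through 14.13 ± 0.09 in HFD fat to 12.65 ± 0.15, 12.40 ± 0.10 and 12.16 ± 0.05 in ND, HFD and LU liver. With this kept probe liver minus fat on ND was -1.64. The other Mgll probes gave -1.26 and -0.42 there, so the size varied with the probe. Abhd5 was 11.87 ± 0.23 in ND and 11.68 ± 0.10 in LU fat, which overlapped, 11.50 ± 0.09 in HFD fat, and 10.54, 10.51 and 10.47 in HFD, ND and LU liver, which overlapped. Gpihbp1 was 12.66 ± 0.24 in ND fat, 12.33 ± 0.08 and 12.10 ± 0.23 in LU and HFD fat with overlap, and 10.48 ± 0.14, 10.22 ± 0.01 and 10.07 ± 0.13 in HFD, ND and LU liver. On ND, liver minus fat was -2.44 with this Gpihbp1 probe and -2.30 with the dimmer one.

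G0s2 had the opposite leader. It was 13.85 ± 0.06 in ND liver, above the other groups, which ran 13.52 ± 0.09, 13.34 ± 0.28 and 13.16 ± 0.14 in LU, ND and HFD fat and 13.06 ± 0.19 and 12.99 ± 0.14 in LU and HFD liver, each overlapping the next. Liver minus fat was 0.51 ± 0.13 on ND (adjusted p = 0.00139), -0.17 ± 0.13 on HFD (adjusted p = 0.212, and 0.04 with cyclic loess) and -0.46 ± 0.13 on LU (adjusted p = 0.00293). The LU call was lost with cyclic loess (-0.23, adjusted p = 0.0966).

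Pnpla3 was 10.59 ± 0.11 in LU fat, and 9.85 ± 0.22 and 9.64 ± 0.81 in HFD and ND fat, which overlapped. As it was not detected in liver, it was at least 8.85-fold higher in fat on ND, at least 11.9-fold on HFD and at least 19.7-fold on LU, against the detection level of the liver arrays. Lpl was at the top of the scale in fat, so that fat was at least 22.5-fold higher than liver on ND, at least 5.82-fold on HFD and at least 4.23-fold on LU. Liver Lpl on the common scale was 11.53 ± 0.18 on ND, 13.51 ± 0.25 on HFD and 13.97 ± 0.06 on LU, without overlap.

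**Figure D5:**
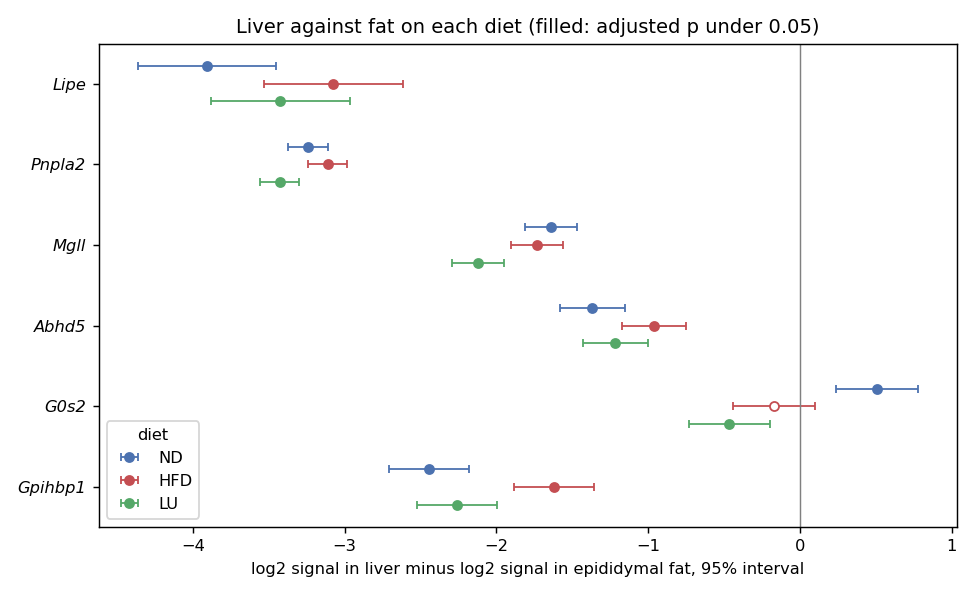
Log2 signal in liver minus log2 signal in epididymal fat (horizontal axis, with 95% intervals from limma) for 6 members on each diet, filled where the adjusted p was under 0.05. Lpl and Pnpla3, given as bounds, are not drawn. Lipe is drawn though its liver signal was near background. G0s2 is above 0 on ND and below it on LU, and the other members drawn lie below 0 on every diet.

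Whether a diet acted differently in the tissues was tested as a difference of differences over all 18 arrays. Of the 8 members 6 could be read in both tissues, among them Lipe, which was near background in liver and could hardly show a decrease there. Pnpla3 was undetected in liver, and no Lpl probe was readable in both, since the bright one was at the top of the scale in fat and the dimmer one undetected in liver, so neither gene has a measured difference here. Liver and fat arrays carry the same numbers within a diet, and nothing in the labels says whether they come from the same mice.

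Between HFD and ND, 4 of these 6 members differed between liver and fat, Lipe among them, where 31.4% of all genes were called. Near background in liver, Lipe could hardly follow its decrease in fat, so this count is not read against that share. Relative to fat, the liver difference was higher for Gpihbp1 (0.82 ± 0.18, adjusted p = 0.00229), Abhd5 (0.41 ± 0.14, adjusted p = 0.0378) and Lipe (0.83 ± 0.30, adjusted p = 0.0482), and lower for G0s2 (-0.68 ± 0.18, adjusted p = 0.00905). The dimmer Gpihbp1 probe differed as well, by 0.61 (adjusted p = 0.0208). The Lipe value rests on a liver probe near background, detected on 1 of 3 ND arrays, and the dimmer Lipe probe, undetected in liver, cannot repeat it. Without ND liver 2 the Lipe value was 0.51 (adjusted p = 0.0984). The Lipe call was lost under 17 of 25 alternatives. Among these were leaving out any 1 of 14 of the 18 arrays (adjusted p from 0.0507 to 0.105) and the adjustment over all detected probes (0.0508). The Abhd5 call was lost without any 1 of 9 arrays (0.0533 to 0.0919).

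Between LU and HFD, 3 of the 6 members differed between the tissues, against 15.6% of all genes. The liver difference was lower than that in fat for Gpihbp1 (-0.64 ± 0.18, adjusted p = 0.0232), Mgll (-0.39 ± 0.11, adjusted p = 0.0316) and Pnpla2 (-0.31 ± 0.09, adjusted p = 0.0236). The fat signals of Pnpla2 were near the top of the range. The dimmer Gpihbp1 probe was at -1.02 (adjusted p = 0.00292), and the other Mgll probes were at -0.57 (adjusted p = 0.0139) and -0.41 (adjusted p = 0.0571). Each of these calls was lost without some arrays, 4 arrays for Gpihbp1 (adjusted p up to 0.059), 8 for Mgll (up to 0.0792) and 4 for Pnpla2 (up to 0.0605). With the diet and number of an array as a block, Gpihbp1 passed (adjusted p = 0.0482) and Mgll (0.0888) and Pnpla2 (0.0604) did not. Endothelial markers differed the same way as Gpihbp1, with 7 of 16 lower and none of them higher, which was not tested against it.

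Genes around the members were taken from 3 lists. Their counts of called genes are read beside the share of all genes called in either direction. Between HFD and ND that share was 30.3% in liver and 45.4% in fat. It was 17.1% and 31.8% between LU and HFD, and 41.1% and 33.3% between LU and ND. The lipolysis control and droplet surface list holds receptors, kinase subunits and perilipins, and 16 of its 34 genes were tested in liver and 27 in fat. Between HFD and ND liver 6 rose and 3 fell (median 0.00, all genes 0.00). Cidea, which enlarges droplets, was at least 35.1-fold higher, as it was not detected on ND. Plin4, a perilipin, rose 2.97-fold (1.57 ± 0.25, adjusted p = 0.00202), and Gnai1, an inhibitory G protein subunit, rose 2.80-fold (1.48 ± 0.22, adjusted p = 0.00144). The glycerol channel gene Aqp7, undetected on ND, was at least 1.05-fold higher.

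Between LU and HFD liver, genes of that list gave 5 lower and none of them higher (median -0.16, all genes 0.03). Cidea fell 6.59-fold (-2.72 ± 0.22). The droplet coat genes Plin2 (-0.87 ± 0.07, adjusted p = 0.000566) and Plin5 (-0.69 ± 0.09, adjusted p = 0.00235) fell, as did Hilpda (-0.54 ± 0.12, adjusted p = 0.0162), an inhibitor of Pnpla2. Thus an inhibitor of the enzyme other than G0s2 was called in this comparison, while G0s2 was not. Against ND, LU livers had 7 of these genes higher and 6 lower (median 0.07), with Cidea at least 5.33-fold higher, Gnai1 1.68 ± 0.22 higher, Plin5 -1.28 ± 0.09 and Aqp7 at least 1.10-fold higher.

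In fat the same list had 3 higher and 11 lower between HFD and ND (median -0.19, all genes -0.03). Of all genes 45.4% were called there, 23.9% of them all being lower calls. Cidea fell (-1.36 ± 0.18, adjusted p = 0.000248), in the direction opposite to liver. Hcar2 (-0.98 ± 0.10, adjusted p = 7.07e-05) and Hcar1 (-0.80 ± 0.15, adjusted p = 0.00246), receptors that restrain lipolysis, fell, and Plin2 rose (0.90 ± 0.10, adjusted p = 9.45e-05). Between LU and HFD fat 8 rose and 1 fell (median 0.15), beside 16.3% of all genes called higher. Fabp4, the fatty acid carrier of fat cells, rose 2.51-fold (1.33 ± 0.15, adjusted p = 0.000557), with Cidea (0.52 ± 0.18, adjusted p = 0.0494), Hcar1 (0.45 ± 0.15, adjusted p = 0.0484) and Plin5 (0.38 ± 0.10, adjusted p = 0.0196). Against ND, LU fat had 7 higher and 5 lower (median -0.06), among them Cidea (-0.84 ± 0.18), Fabp4 (0.83 ± 0.15), Hcar2 (-0.62 ± 0.10) and Pde3a (-0.60 ± 0.12), a phosphodiesterase gene detected on 1 of 3 LU arrays.

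The second list holds partners of Lpl in the bloodstream, its inhibitors, apolipoproteins and uptake receptors, and 20 of its 25 genes were tested in each tissue. In HFD against ND liver 7 rose and 5 fell (median 0.06). Vldlr, a lipoprotein receptor, rose 2.55-fold (1.35 ± 0.15, adjusted p = 0.000359) and Angptl8, a partner of the Lpl inhibitors, rose 2.11-fold (1.08 ± 0.35, adjusted p = 0.042). Pltp, a phospholipid transfer protein, fell (-0.84 ± 0.15, adjusted p = 0.00371), as did Apoa5, an apolipoprotein that favours Lpl action (-0.68 ± 0.11, adjusted p = 0.00169). Between LU and HFD liver 1 rose and 4 fell (median -0.05): Angptl4, an inhibitor of Lpl, fell (-0.51 ± 0.12, adjusted p = 0.0188), with Pltp (-0.53 ± 0.15, adjusted p = 0.0441) and Sel1l (-0.29 ± 0.07, adjusted p = 0.025), and Sort1 rose (0.34 ± 0.10, adjusted p = 0.0407). LU against ND liver gave 8 higher and 7 lower (median 0.11), with Pltp at -1.37 ± 0.15, Angptl8 at 1.21 ± 0.35, Angptl4 at -1.09 ± 0.12 and Vldlr at 0.99 ± 0.15.

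In fat 5 of these partners rose and 7 fell between HFD and ND (median -0.05). Sdc1, a heparan sulfate proteoglycan undetected on ND, was at least 2.54-fold higher, and Pltp rose 2.75-fold (1.46 ± 0.05, adjusted p = 6.25e-07). The proprotein convertases Pcsk6 (-0.93 ± 0.11, adjusted p = 0.000123) and Pcsk5 (-0.83 ± 0.23, adjusted p = 0.0142) fell. Between LU and HFD 6 rose and 2 fell (median 0.17). Cd36, which takes up the fatty acids that Lpl releases, rose (0.83 ± 0.10, adjusted p = 0.000655), as did Angptl8 (0.63 ± 0.13, adjusted p = 0.00671), while Pltp (-0.88 ± 0.05, adjusted p = 5.87e-05) and Sdc1 (-0.67 ± 0.15, adjusted p = 0.00918) fell. LU against ND fat gave 6 higher and 1 lower (median 0.12), with Sdc1 at least 1.60-fold higher, Cd36 at 0.93 ± 0.10, Pcsk6 at -0.79 ± 0.11 and Pltp at 0.58 ± 0.05.

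The last list holds other hydrolases of neutral lipids and esters, with 19 of 27 genes tested in liver and 15 in fat. HFD against ND liver gave 3 higher and 3 lower (median -0.09): the carboxylesterase gene Ces1g rose (0.99 ± 0.14, adjusted p = 0.00115), Ces3b fell (-0.83 ± 0.14, adjusted p = 0.00227), the Pnpla relative Pnpla7 fell (-0.69 ± 0.13, adjusted p = 0.00373) and Abhd12 rose (0.48 ± 0.12, adjusted p = 0.0134). LU against HFD gave 1 higher, Pnpla1 (0.53 ± 0.16, adjusted p = 0.0479, detected on 1 of 3 HFD arrays), and 1 lower, Ddhd1 (-0.36 ± 0.08, adjusted p = 0.0154), with a median of 0.00. LU against ND gave 3 higher and 6 lower (median -0.05), with Ces1g at 0.88 ± 0.14, Pnpla7 at -0.85 ± 0.13, Nceh1 at -0.56 ± 0.09 and Pnpla1 at least 1.17-fold higher.

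In fat 6 of those hydrolases rose and 4 fell between HFD and ND (median -0.13). Nceh1, a cholesteryl ester hydrolase, rose 5.03-fold (2.33 ± 0.11, adjusted p = 8.49e-07), the lysosomal lipase gene Lipa rose 3.22-fold (1.69 ± 0.09, adjusted p = 1.23e-06) and Daglb rose 2.72-fold (1.44 ± 0.08, adjusted p = 2.08e-06), while Ces1f fell 4.50-fold (-2.17 ± 0.18, adjusted p = 1.57e-05). Between LU and HFD 5 rose and 4 fell (median 0.06): Nceh1 fell (-0.67 ± 0.11), Daglb fell (-0.65 ± 0.08), Ces1f rose (0.75 ± 0.18) and Abhd6 rose (0.77 ± 0.15, detected on 1 of 3 HFD arrays). LU against ND gave 7 higher and 3 lower (median 0.27), with Nceh1 at 1.66 ± 0.11, Ces1f at -1.42 ± 0.18, Lipa at 1.09 ± 0.09 and Daglb at 0.80 ± 0.08. The macrophage markers of fat, given above, moved with the same diets, and their part in these values was not tested.

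For each called member the 3 genes with the smallest root mean square difference of centred log2 values over the 9 arrays of a tissue were listed. In liver Lpl was closest to Ubd (0.193), H2-M2 (0.214) and Lgals3 (0.238), where the median over all genes was 1.21. G0s2 was closest to Lgals4, Acat1 and Slc25a34 (0.104 to 0.130, median 0.499). Pnpla2 in liver was closest to Kat2b, Uck2 and Mtmr3, Mgll to Rgs7bp, Ldha and Zfp397, and Gpihbp1 to Esrrb, Prdx3 and Tars. In fat Pnpla2 was closest to Dmwd (0.0297), Tfb2m and Slc25a28 (median 0.235) and Lipe to Mapk1ip1 (0.0572), Smarcc2 and Fbxo31 (median 0.301). Abhd5 was closest to Fitm2, Thada and Iba57, Gpihbp1 to Kif13a, Adgrf5 and Isg20, and Pnpla3 to Pla2g2e, Clstn3 and Krt79. The points share their arrays and the 3 diet groups, so this likeness is a description.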

How the data were processed

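RNA was measured in 9 liver and 9 epididymal fat samples, 550 ng of total RNA per array, per the labels. The deposited tables hold 1 signal intensity and 1 detection p-value per probe and array, per the file headers, made with GenomeStudio 2009.2, while R 2.4.1 is also listed, per the submitters' processing notes. The authors' log2 matrix is normalized per tissue by a method not given in the sources used here, and served as an alternative.

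The deposited intensities were background corrected from the detection p-values, quantile normalized and turned to log2 (neqc steps of limma 3.58.1, R 4.3.3, offset 16), per tissue, and over 18 arrays for tissue differences. Probes detected (p under 0.05) on all 3 arrays of a group were kept, then per gene the probe with the highest mean, giving 8937, 10240 and 10764 genes in liver, fat and both. Where a gene has several probes, the values given for the others come from a fit over all detected probes. Gene names come from the platform annotation: 22883 probes have 1 gene, 13 several, 5825 of the authors' matrix none. For genes undetected in a group, folds are bounds against the detection level of the arrays. Linear models with empirical Bayes moderation and Benjamini-Hochberg adjustment were used, and the method was tested on simulated data. A 95% interval is unadjusted. The exact permutation test over arrays was used for ratios.

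Named were all members with every probe, up to 4 called genes per list and diet comparison by size of difference, and the 3 genes most alike. The members, lists and tests were chosen with earlier results of these data known. Alternatives were other backgrounds, normalizations, filters and moderation, the authors' values, all probes, leaving out each array in turn, only the 6 arrays compared, and a block for the replicate number. Same-numbered arrays of a tissue had deviations correlated between -0.16 and 0.19 in liver and -0.08 and 0.10 in fat. No pairing by number is seen in these values, but with 3 arrays a group they cannot exclude one. No slide or scan batch is given in the sources used here.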

Additional observations from a re-analysis of the deposited data

Results flagged for a closer look

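Diet differences that were unlike in the tissues were picked out by the test of liver minus fat in limma over all 18 arrays, and no explanation was tested. For HFD against ND these were Gpihbp1 (0.82), G0s2 (-0.68), Abhd5 (0.41) and Lipe (0.83). For LU against HFD they were Gpihbp1 (-0.64), Mgll (-0.39) and Pnpla2 (-0.31). The Lipe value uses a liver probe near background, detected on 1 of 3 ND arrays, which could hardly show a decrease. Lpl and Pnpla3 could not be read in both tissues. Between HFD and ND, Gpihbp1 rose in liver, narrowly, and fell in fat within the tissues, while G0s2 fell in liver and was not called in fat.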

How the results depend on the processing

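Of 49 member calls in 11 comparisons, 37 held under every alternative run and 12 were lost under at least 1. The calls that held were mostly between tissues: 8 of 8 on ND, 7 of 7 on HFD and 7 of 8 on LU. For HFD against ND, 3 of 4 held in liver, 3 of 4 in fat and 3 of 5 for liver minus fat. For LU against HFD these were 1 of 2, 1 of 2 and 0 of 4. For LU against ND, 4 of 4 held in liver and 0 of 1 in fat. None of the called values changed sign, and 11 of 36 uncalled values passed under at least 1. The calls include every Lpl value between tissues, which rests on the fat probe at the top of the scale. They also include Pnpla3 for liver against fat on each diet, where it was undetected in liver.

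Counts of all genes called moved by over 1.5 times only in these cases. LU against HFD liver gave 750 to 1559 with 1 array left out (1526 with all arrays), LU against ND fat 2234 to 3525 (3407), LU against HFD fat 2125 to 3823 (3259, lowest without LU fat 2), and LU against HFD between tissues 1116 to 1905 (1684, lowest without LU fat 2). The strict filter (p under 0.01 on all arrays) tested fewer genes and gave 5679, 5661 and 5617 calls between tissues on ND, HFD and LU. Members called between LU and HFD liver were 1 with cyclic loess, median scaling, no filter and the replicate block, and 1 to 3 with an array left out. For LU against ND fat they were 2 with cyclic loess and median scaling, 0 with no filter, trend and robust moderation, only the 6 arrays and the replicate block, and 0 to 2 with an array left out. For LU against HFD fat they were 4 with the authors' values and with the 6 arrays, and 1 to 4 with an array left out. Between tissues, the Lpl value included, LU against HFD gave 1 under the replicate block and 1 to 4 with an array left out, and HFD against ND 3 to 5. The labels do not say what arrays with the same replicate number share. As a block the replicate numbers moved no count of all genes by over 1.5 times. Between tissues the block ended the Lipe call of HFD against ND (adjusted p = 0.0905), and same-numbered liver and fat arrays had deviations correlated between -0.08 and 0.13.

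Uncalled members changed sign as follows. With cyclic loess, Pnpla2 LU against HFD liver became -0.017, Lpl HFD against ND fat -0.056, Mgll LU against ND fat 0.015 and G0s2 liver against fat on HFD 0.036. With median scaling, Pnpla2 became -0.061, Abhd5 LU against ND liver 0.025, Lpl -0.070 and Mgll 0.026 in the same comparisons. The authors' values, which hold no fat value for the bright Lpl probe, gave -0.18 for Lpl HFD against ND fat and 0.31 for LU against HFD fat (adjusted p = 0.0343). With 1 array left out, liver values for HFD against ND ran from -0.031 to 0.101 for Abhd5 and -0.061 to 0.285 for Lipe. For LU against HFD liver they ran from -0.034 to 0.197 for G0s2, -0.085 to 0.207 for Lipe and -0.017 to 0.041 for Pnpla2, and for LU against ND liver from -0.108 to 0.023 for Abhd5. In fat they ran from -0.171 to 0.605 for Pnpla3 HFD against ND and -0.042 to 0.049 for Mgll LU against ND. The causes were not tested.

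Median scaling moved the median of all genes for HFD against ND liver from 0.00 to 0.12 and between tissues to -0.61, -0.51 and -0.55 on ND, HFD and LU. The share of calls that were higher went from 59.1% to 82.7% for HFD against ND, 49.3% to 29.4% for LU against HFD and 57.6% to 70.1% for LU against ND in liver. It went from 44.6% to 26.9%, 45.0% to 30.5% and 45.2% to 28.1% between tissues on ND, HFD and LU, and from 57.6% to 72.6% and 53.9% to 38.4% for the tissue differences of HFD against ND and LU against HFD. Signal limits Lpl in fat at the top of the scale and Lipe and Pnpla3 in liver at background. Pnpla2 in fat, at 44145 to 64870, was near the top of the range in every comparison that uses it.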
